A study of Mus musculus with 2 samples.

Results

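The 9 genes described here encode 3 neurotrophic ligands (Bdnf, Ntf3 and Gdnf) and 6 of the receptors that bind such ligands (Ngfr, Ntrk2, Ntrk3, Ret, Gfra1 and Gfra2). They were taken by symbol, not by their values, and each matched 1 of the 32285 gene rows of both count matrices. Single-cell RNA sequencing counted unique molecular identifiers (UMIs, 1 per captured mRNA molecule) at the 3' end of transcripts in cells dissociated from the inner ear of CBA/CaJ mice aged 4 to 6 weeks. All ears were exposed to noise of 105 dB at 1 to 20 kHz for 2 hours and were dissected 2 days later. Before the noise, the AAV-Isl1 plus noise ears were treated with an adeno-associated virus that carries Isl1, whose product is a LIM homeodomain transcription factor. The noise-only group consisted of the untreated opposite ears of those animals. The labels give 5 mice per group, pooled into 1 library each, so no difference between the groups has a replicate check and no p-value is given. Ears without noise and ears given an empty vector were not analysed here, and the promoter and serotype of the vector are not given in the sources used here.

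Neurotrophins act through 2 kinds of receptor. BDNF and neurotrophin-3 bind the tyrosine kinases TrkB (Ntrk2) and TrkC (Ntrk3), and the p75 receptor (Ngfr) binds all neurotrophins and their precursors. GDNF is bound by the membrane-anchored co-receptor GFRA1 and neurturin by GFRA2, and both complexes signal through the kinase RET. In the cochlea, BDNF and neurotrophin-3 are known as survival factors of spiral ganglion neurons, which carry the signals of hair cells to the brain.

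The noise-only library held 18757 cells after filtering and the AAV-Isl1 plus noise library 21736, with a median of 1048 and 1086 UMIs per cell. The libraries listed 21068 and 24209 barcodes, far above the 1600 cells that the labels say were loaded, and whether each barcode held a whole cell was not tested. They shared 145 barcodes, and leaving those out kept each of the ratios recomputed without them inside its interval. Clustering gave 20 populations with at least 80 cells in each library, of which 13 were named from marker genes and 7 were left unnamed. The tissue is labelled sensory epithelium, but hair cell-like cells made up 0.490% and 1.48% of the kept cells and Schwann or satellite glia-like cells 35.1% and 20.4%. Levels are given as CPM, the UMIs of a gene per 1000000 UMIs of a population, with exact 95% Poisson intervals, and every interval here covers counting error only. Each UMI stands for 1 molecule whatever its length, and full-length and truncated forms of Ntrk2 and Ntrk3 are counted together. The level in erythroid-like cells served as the measure of free RNA, and a population was said to hold a transcript above background where it had at least 10 UMIs in each library and its lower bound lay above the erythroid upper bound in both. The ratio is the CPM of the AAV-Isl1 plus noise library over that of the noise-only library, given from 20 UMIs upward, and a ratio is called past 1.5-fold in either direction.

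Isl1 itself, the check of the labels, stood at 80.2 CPM in the noise-only library and 112 CPM in the AAV-Isl1 plus noise library (ratio 1.40, 1.33 to 1.47). In hair cell-like cells its level was 49.0 CPM (8 UMIs) and 579 CPM (220 UMIs), an 11.8-fold ratio (5.89 to 27.7). The ratio was 5.20 (4.41 to 6.17) in cochlear non-sensory epithelium-like cells, whose origin in the cochlea or the balance organs of the inner ear was not tested. In neuron-like cells, which held Isl1 in both libraries, it was 0.846 (0.799 to 0.895). Erythroid-like cells had 21.3 and 17.3 CPM. Isl1 was thus higher in the library labelled with it, unevenly so across populations, and UMIs from the vector and from the mouse gene were not told apart.

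Over all 180 pairs of a gene and a population, 21 lay above background. Ligand transcripts were counted in few places, with Bdnf in hair cells and Ntf3 in mural cells (pericytes and smooth muscle cells, which line blood vessels), while Trk receptor transcripts were counted in neurons and in several other populations. Of 49 pairs with enough UMIs for a ratio, 12 were past 1.5-fold higher in the AAV-Isl1 plus noise library and 5 past 1.5-fold lower, against 10.9% and 7.27% of all such pairs of any gene. None of the 12 higher pairs was among the 21 above background. Because the rule must be met in both libraries, a transcript low in the noise-only library could not pass it, whatever its level in the other. Of the 5 lower pairs, Gfra1 in cluster 12 and Ntrk2 and Ntf3 in mural cells were above background. Summed over all kept cells, Bdnf was past 1.5-fold higher, where 7.61% of 17138 genes were, and Ntf3 past 1.5-fold lower, where 3.64% were, and the other 7 genes were not called.

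The genes lie on GRCm38 as annotated in GENCODE vM21 and are all protein-coding. Bdnf is on chromosome 2 (109674700 to 109727007, plus strand), Ntf3 on chromosome 6 (126101412 to 126166910, minus strand) and Gdnf on chromosome 15 (7810846 to 7837575, plus strand). Ngfr is on chromosome 11 (95568818 to 95587735, minus strand), Ntrk2 on chromosome 13 (58806569 to 59133970, plus strand) and Ntrk3 on chromosome 7 (78175959 to 78738012, minus strand). Ret is on chromosome 6 (118151745 to 118197718, minus strand), Gfra1 on chromosome 19 (58235604 to 58455909, minus strand) and Gfra2 on chromosome 14 (70890120 to 70979838, plus strand). Because the treatment delivered a homeodomain factor, the 14 RefSeq promoter windows found for 6 of these genes (GRCm38.p6, 250 bases before to 50 after a start) were searched on both strands for CTAATG, a hexamer with the homeodomain core, and for the cyclic AMP response element TGACGTCA. CTAATG was found in 2 of the 14 windows, against 7.36% of 32851 windows of all genes, and TGACGTCA in 0 of 14, against 1.79% of all. With 14 windows of 6 genes, several of them alternative starts of Bdnf, no difference is read from these shares. The 2 windows with a match are shown with it in capitals, the first from Ntrk2 at chr13:58806319-58806618 (plus strand) and the second from a start of Gdnf at chr15:7809798-7810097 (plus strand). A match describes the letters of the window and is not a measured binding site.
Ntrk2: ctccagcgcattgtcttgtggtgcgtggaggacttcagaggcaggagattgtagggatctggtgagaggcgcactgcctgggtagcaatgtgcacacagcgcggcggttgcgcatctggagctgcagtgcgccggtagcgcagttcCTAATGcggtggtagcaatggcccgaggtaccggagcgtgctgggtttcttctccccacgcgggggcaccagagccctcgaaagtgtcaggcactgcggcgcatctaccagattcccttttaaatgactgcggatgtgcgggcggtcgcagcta
Gdnf: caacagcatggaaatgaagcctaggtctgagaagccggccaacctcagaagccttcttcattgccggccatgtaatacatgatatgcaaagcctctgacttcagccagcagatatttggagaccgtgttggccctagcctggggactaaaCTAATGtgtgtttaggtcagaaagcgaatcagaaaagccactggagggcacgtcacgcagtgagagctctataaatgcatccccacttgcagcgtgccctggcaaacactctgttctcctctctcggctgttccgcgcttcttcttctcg

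Bdnf was counted above background in 1 of 20 populations, the hair cell-like cells. Its level there was 698 CPM (576 to 839, 114 UMIs) in the noise-only library and 742 CPM (658 to 833, 282 UMIs) in the AAV-Isl1 plus noise library. The ratio was 1.06 (0.852 to 1.33), so a difference was not detectable at this depth. Hair cells held 66.7% and 69.8% of all Bdnf UMIs. After thinning each cell to 1000 UMIs, Bdnf was found in 43 of 86 hair cell-like cells (50.0%, 39.0 to 61.0) and in 103 of 220 (46.8%, 40.1 to 53.6), against 0.498% and 0.896% of erythroid-like cells. Before thinning the shares were 63.0% and 53.1%, at median depths of 1714 and 1123.5 UMIs. Whether the hair cell-like cells came from the cochlea or from the balance organs of the inner ear was not tested. Within these cells, which were split into 4 sub-clusters, Bdnf was counted in each sub-cluster in both libraries. The largest sub-cluster, led by Bmp2 and Zmynd10, had 850 and 924 CPM. A sub-cluster led by Otog, Coch and Sox2 (20 and 67 cells), which held 3 markers of cochlear epithelium, had 236 and 434 CPM, a ratio of 1.84 (0.909 to 4.10). The sub-cluster led by Slc26a5, which encodes the motor protein prestin of outer hair cells, held only 7 and 12 cells, with 16 Bdnf UMIs (854 CPM) and 4 UMIs (277 CPM), and its ratio of 0.324 (0.0788 to 1.00) was not distinguishable from 1. Another sub-cluster (4 and 42 cells, 975 and 711 CPM) held 9 markers of Schwann or satellite glia as well. Of the 2 genes with a ratio in hair cell-like cells, Bdnf was not past 1.5-fold and Ntrk2 was (0.601, 0.248 to 1.51, 10 and 14 UMIs), where 25.0% of all genes measured in these cells were called.

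**Figure D1:**
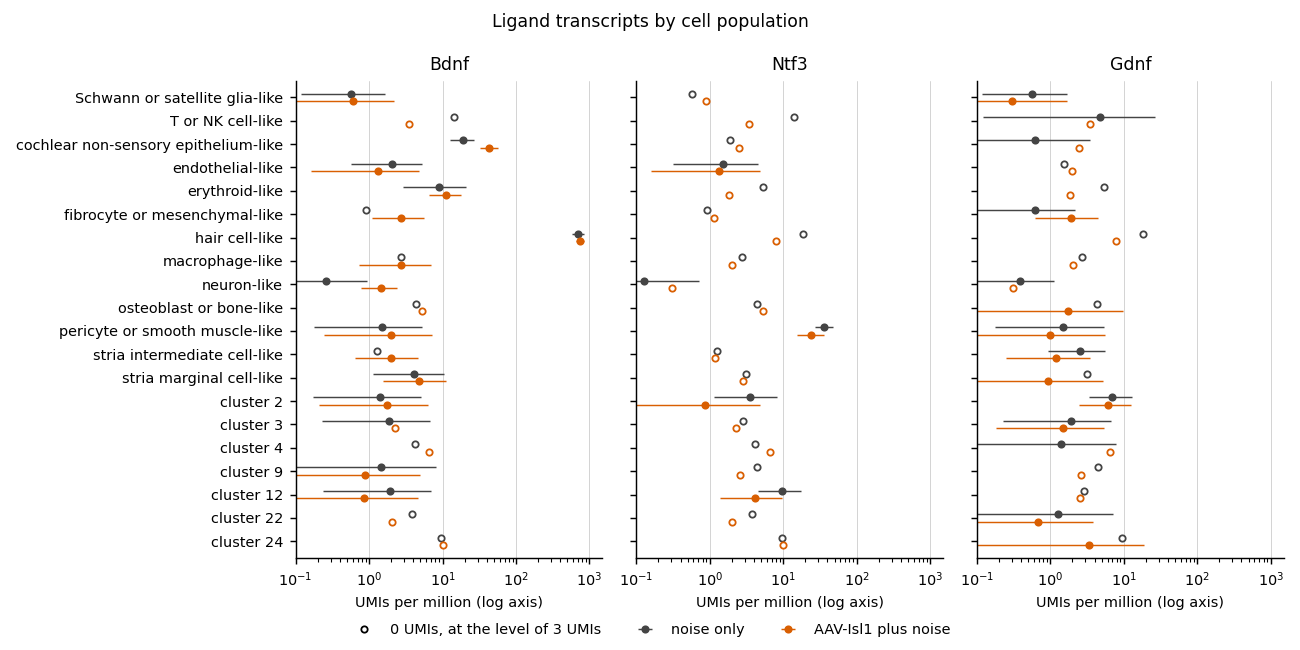
Level of the 3 ligand genes in each of the 20 populations (rows), as CPM on a log axis, for the noise-only (grey) and AAV-Isl1 plus noise (orange) libraries; lines are exact 95% Poisson intervals and open circles mark 0 UMIs, drawn at the level that 3 UMIs would give. Bdnf stood at 698 and 742 in hair cell-like cells, Ntf3 at 36.1 and 24.0 in pericyte or smooth muscle-like cells, and the highest Gdnf level was 7.0 and 6.08, in cluster 2.

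Over all kept cells the level of Bdnf was 5.09 CPM in the noise-only library and 11.2 CPM in the AAV-Isl1 plus noise library, a ratio of 2.20 (1.83 to 2.65). The number of hair cell-like cells recovered differed between the libraries, with 92 and 322. When the level of each population was held at its noise-only value and only the share of UMIs per population was taken from the other library, the ratio was 1.76. Cochlear non-sensory epithelium-like cells had 18.7 and 42.8 CPM of Bdnf (30 and 52 UMIs, ratio 2.29, 1.43 to 3.71), which did not pass the background rule. That outcome depends on the erythroid-like cells, which held 5 and 18 Bdnf UMIs among 564357 and 1616857 UMIs. Macrophage-like cells held 0 and 4 among 1105378 and 1487588. Of the Bdnf UMIs in the epithelium, 11 and 31 came from 1 sub-cluster of 57 and 150 cells. It was led by the hair cell gene Otof with Otol1 and held 4 of 19 hair cell markers. The shift of cells between the 9 epithelial sub-clusters alone gave a ratio of 2.53. Within that Otof sub-cluster the ratio was 1.17 (0.572 to 2.58), and without sub-clusters that held at least 3 markers of another class it was 1.89 (0.918 to 3.90) in the epithelium. All 3 genes with a ratio in this population (Bdnf, Ntrk2 and Gfra1) were past 1.5-fold higher, where 21.9% of all genes were called. Hair cell markers moved with this count, at a summed 544 CPM (1 of 19 at 0) and 792 CPM (0 of 19 at 0), and so did the 17 glial markers (3547 and 5230 CPM, 0 at 0 in both) and the 15 neuron markers (176 CPM with 2 at 0 and 298 CPM with 1 at 0). An epithelial sub-cluster that held 10 glial markers had 82 and 171 cells. The part of these markers in the 3 ratios was not tested.

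Ntf3, which encodes neurotrophin-3, was counted above background only in pericyte or smooth muscle-like cells among the 20 populations. These cells had 36.1 CPM (26.7 to 47.8, 49 UMIs) in the noise-only library and 24.0 CPM (15.4 to 35.7, 24 UMIs) in the AAV-Isl1 plus noise library, and held 72.1% and 72.7% of the Ntf3 UMIs. Nearly all of these came from the smooth muscle cluster (led by Cnn1, Myh11 and Acta2), with 48 and 23 UMIs and levels of 62.2 and 45.7 CPM. The ratio was 0.663 (0.389 to 1.10) in the class and 0.734 (0.426 to 1.23) in the smooth muscle cluster, neither of which could be told from 1. Cluster 12, an unnamed population led by Crhbp, Vmo1, Bbox1 and Otx2, held another 10 and 5 UMIs. No Ntf3 UMI was found in hair cell-like, cochlear non-sensory epithelium-like or Schwann or satellite glia-like cells of either library. A count of 0 allows up to 1.87 and 2.47 CPM in the epithelium, 18.4 and 7.89 CPM in hair cells and 0.569 and 0.899 CPM in glia. In 15 of the 20 populations Ntf3 was at 0 in both libraries, erythroid-like cells among them. Summed over all cells kept, the Ntf3 ratio was 0.452 (0.289 to 0.694, 68 and 33 UMIs), and the makeup of populations alone gave 0.756.

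Gdnf was scarce, with 32 and 24 UMIs in the libraries (ratio 0.698, 0.394 to 1.22). The population with the most was cluster 2 (led by Dpep1, Fst, Lox and Coch), which had 10 and 7 UMIs, or 7.0 and 6.08 CPM. It passed the background rule in none of the 20 populations, and it was at 0 in both libraries in 6 of them. None of its UMIs lay in hair cell-like or erythroid-like cells.

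**Figure D2:**
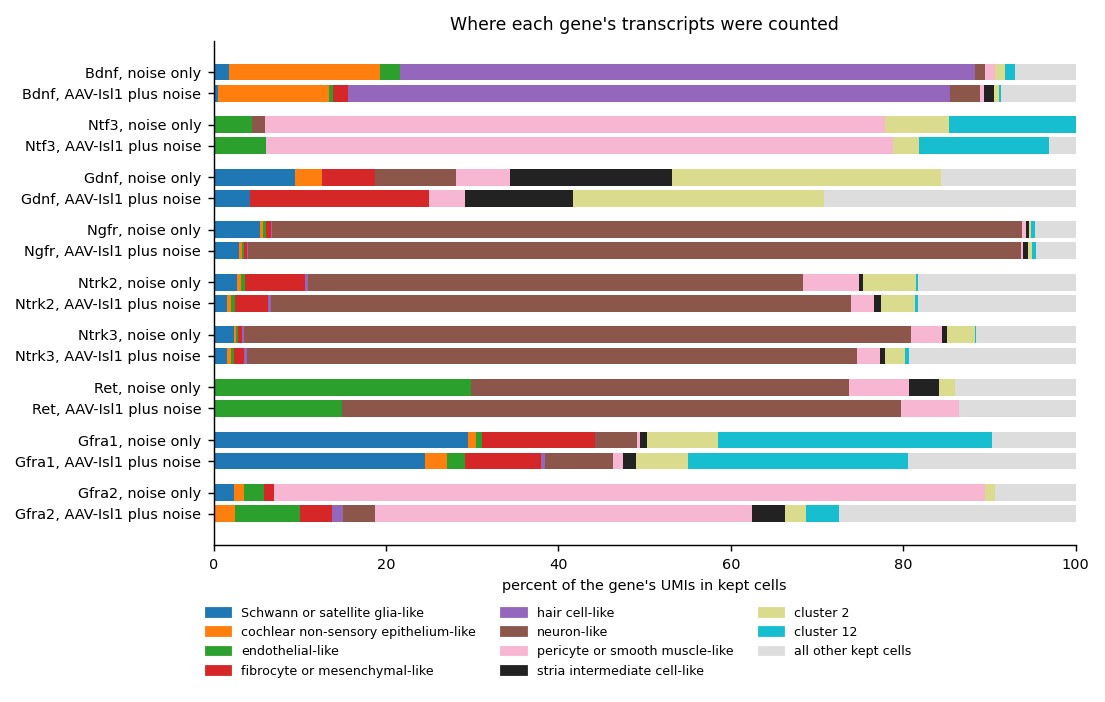
Percent of the UMIs of each gene (rows, 1 bar per library) that was counted in each of the 10 populations holding the largest shares, with all other kept cells in light grey. Hair cell-like cells held 66.7% and 69.8% of Bdnf, neuron-like cells 87.0% and 89.8% of Ngfr, and the Gfra2 bar of the pericyte or smooth muscle-like cells stands at 82.6% and 43.8%.

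Neuron-like cells held 3 of the 6 receptors above background. Ngfr, the p75 receptor, had 70.5 CPM (64.7 to 76.7, 551 UMIs) and 81.7 CPM (76.2 to 87.6, 798 UMIs) in them, which was 87.0% and 89.8% of all Ngfr UMIs. It was the only population of the 20 above background for Ngfr, as the others reached at most 12.2 CPM. Ntrk2 had 205 CPM (195 to 215, 1603 UMIs) and 219 CPM (210 to 229, 2139 UMIs). Ntrk3 had 198 CPM (189 to 209, 1551 UMIs) and 194 CPM (185 to 203, 1890 UMIs). These intervals are narrow because neurons held the most RNA, with a median of 10123 and 6537 UMIs per cell. After thinning to 1000 UMIs, Ntrk2 was found in 18.0% and 17.8% of neuron-like cells against 0 of 201 (which allows up to 1.49%) and 2.09% of erythroid-like cells, Ntrk3 in 18.5% and 16.7% against 0.498% and 1.34%, and Ngfr in 5.87% and 7.01% against 0 of 201 and 0.149%. At full depth, 506 of 803 neuron-like cells (63.0%) in the noise-only library and 694 of 1489 (46.6%) in the other held UMIs of both Ntrk2 and Ntrk3, and 719 and 1220 cells held UMIs of at least 1 of them. The unthinned shares follow the difference in depth between the libraries and are not read as a change.

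The ratios in neuron-like cells were 1.16 (1.04 to 1.29) for Ngfr, 1.07 (1.00 to 1.14) for Ntrk2 and 0.975 (0.911 to 1.04) for Ntrk3. None of these 3 was past 1.5-fold, and of the 5 genes with a ratio in neurons 1 was past 1.5-fold (Ret), where 8.29% of all genes were called. The neuron-like cells were split into 8 sub-clusters, and the libraries differed in how the cells fell among them. The shift between sub-clusters alone gave ratios of 1.08 for Ngfr, 1.12 for Ntrk2 and 1.03 for Ntrk3. Within sub-clusters, Ntrk2 was above 1 in 3 and below 1 in 5 of 8, between 0.713 and 1.02, and the Ngfr ratio was above 1 in 5 of 8, between 0.870 and 1.44. With each cell thinned to 1000 UMIs the Ntrk2 ratio was 0.996 (0.821 to 1.21).

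Levels also differed between the sub-clusters. Sub-cluster 7, named type II spiral ganglion neuron-like from 4 of 7 markers and led by Th and Prph, held only 10 and 18 cells. Type II neurons are the small group of spiral ganglion neurons that contact outer hair cells. Its Ngfr level was 605 CPM (419 to 846, 34 UMIs) and 800 CPM (601 to 1044, 54 UMIs), and all 10 and all 18 of these cells held at least 1 Ngfr UMI. In the other 7 sub-clusters Ngfr lay between 47.8 and 98.8 CPM in the noise-only library and between 43.3 and 124 CPM in the other, and no interval of these overlapped that of sub-cluster 7. Gfra1 followed this order, with 410 CPM (260 to 615, 23 UMIs) and 193 CPM (103 to 329, 13 UMIs) in sub-cluster 7 against at most 10.5 and 11.9 CPM in the rest. The Gfra1 ratio in sub-cluster 7 was 0.470 (0.219 to 0.968), while the other 3 sub-clusters with enough UMIs for a ratio were above 1, up to 2.40 (0.993 to 6.38) in sub-cluster 2. Ret had 0 UMIs in these cells, which allows up to 53.4 CPM in the noise-only library and 44.5 CPM in the other. Sub-cluster 5, led by Tac1, Pcp4, Onecut1 and Tlx3, had the highest Ntrk2 level, 431 CPM (381 to 486) and 381 CPM (354 to 410), against at most 249 and 237 CPM elsewhere. The interval of sub-cluster 7 (136 to 418) reached into that of sub-cluster 5 in the noise-only library. Sub-cluster 5 held 47 of the 803 and 195 of the 1489 neuron-like cells. Ntrk3 varied less among sub-clusters, between 136 and 270 CPM in the noise-only library and between 141 and 268 CPM in the other. These levels describe clusters made from the same cells, although the 9 genes were kept out of the genes used for clustering.

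**Figure D3:**
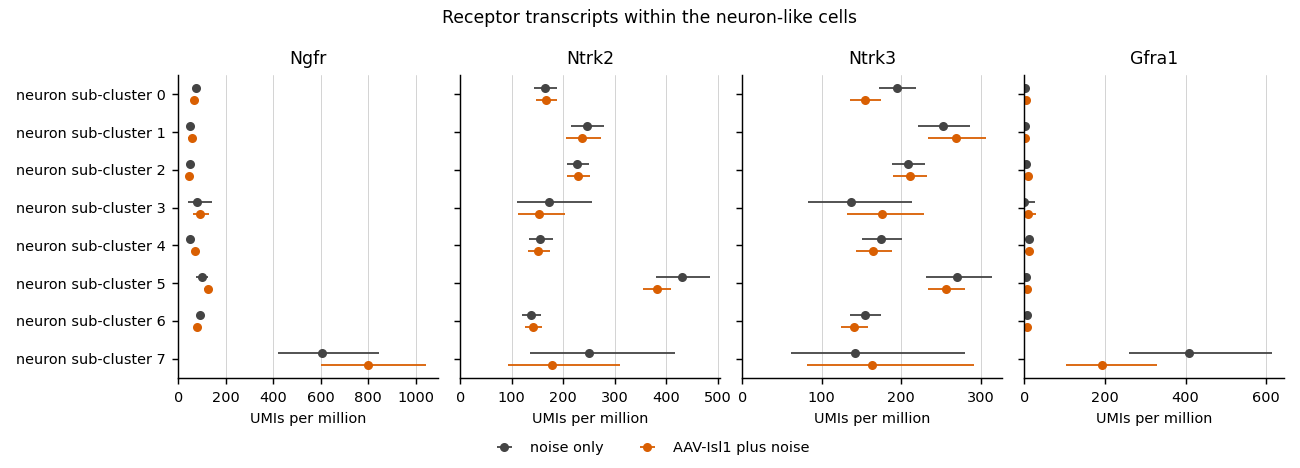
Level of Ngfr, Ntrk2, Ntrk3 and Gfra1 (CPM, linear axes) in the 8 sub-clusters of neuron-like cells for the noise-only (grey) and AAV-Isl1 plus noise (orange) libraries, with exact 95% Poisson intervals. Sub-cluster 7 stands at 605 and 800 for Ngfr and at 410 and 193 for Gfra1, and sub-cluster 5 at 431 and 381 for Ntrk2.

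Outside neurons, Ntrk2 was above background in 6 further populations. Cluster 4, led by Gpr83, Ccl11 and Osr2, had 251 and 198 CPM (181 and 90 UMIs), and cluster 9, led by Them5, Ceacam10 and Igfbp6, had 157 and 139 CPM (107 and 159 UMIs). Cluster 2 had 120 and 109 CPM, cluster 22 (led by the transporters Slc6a13 and Slc6a12) 76.0 and 83.4 CPM, and fibrocyte or mesenchymal-like cells 58.7 and 45.6 CPM. In pericyte or smooth muscle-like cells the level was 136 CPM (117 to 157, 184 UMIs) in the noise-only library and 86.9 CPM (69.6 to 107, 87 UMIs) in the AAV-Isl1 plus noise library. The ratio there was 0.640 (0.490 to 0.831), the lowest of the 7 populations, while the other 6 lay between 0.777 and 1.10. Beside it, the summed level of the 12 pericyte or smooth muscle markers in this class was 23998 and 18792 CPM, with 0 at 0 in both libraries, and that of the 17 Schwann or satellite glia markers 3647 and 6687 CPM, also with 0 at 0. Their part in the ratios of Ntrk2, Ntf3 and Gfra2 in this class was not tested. The pericyte cluster (led by Steap4, Kcnj8 and Rgs5) carried most of these UMIs, with 251 CPM (147 UMIs) and 135 CPM (67 UMIs) and a ratio of 0.535 (0.395 to 0.719). The smooth muscle cluster had 47.9 and 39.7 CPM. With doublets kept the ratio in the class was 0.745 (0.577 to 0.958), which ends the call.

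The 2 mural clusters differed in their levels of these genes. Ntrk2 and Gfra2 were higher in the pericyte cluster and Ntf3 and Ntrk3 in the smooth muscle cluster, though Ntrk2 was counted in both. Gfra2, the neurturin co-receptor, was above background only in this class, at 52.3 CPM (40.9 to 66.0, 71 UMIs) and 34.9 CPM (24.3 to 48.6, 35 UMIs), with a ratio of 0.668 (0.432 to 1.01). In the pericyte cluster the levels were 97.5 CPM (57 UMIs) and 56.2 CPM (28 UMIs), a ratio of 0.577 (0.353 to 0.922), and in the smooth muscle cluster 18.1 and 13.9 CPM. Cells thinned to 1000 UMIs gave a Gfra2 ratio of 0.989 (0.378 to 2.45) in the class, over few UMIs. Ntrk3 in the class was at 53.1 CPM (41.5 to 66.8) and 69.9 CPM (54.5 to 88.3), and in the smooth muscle cluster at 85.5 CPM (66 UMIs) and 125 CPM (63 UMIs) with a ratio of 1.46 (1.02 to 2.10). Of 1138 and 1003 cells of the class, 47 and 23 held Ntf3, 63 and 63 held Ntrk3, and 67 and 34 held Gfra2. Of the 4 genes with a ratio in this class, Ntf3 and Ntrk2 were past 1.5-fold lower, where 18.3% of all genes were called in either direction and 7.57% lower.

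Ntrk3 was also above background in 3 unnamed populations. Cluster 22 had 153 CPM (127 to 183, 121 UMIs) and 215 CPM (192 to 240, 320 UMIs), with a ratio of 1.41 (1.14 to 1.75) that became 1.06 (0.767 to 1.49) with each cell thinned to 1000 UMIs. Cluster 3, led by Prg4, Krtdap and Penk, had 55.5 and 55.3 CPM, and cluster 2 had 44.8 and 53.0 CPM. Glia as a class had less, yet the sub-cluster of satellite or non-myelinating glia-like cells (led by Npy, Scn7a and Fabp7, 310 and 130 cells) had 125 CPM (84.8 to 177, 31 UMIs) in the noise-only library and 38.7 CPM (10.5 to 99.1, 4 UMIs) in the other. Its ratio of 0.310 (0.0796 to 0.878) rests on those 4 UMIs. The other glial sub-cluster with enough UMIs for a ratio went the opposite way, at 3.18. In the main clustering, the ratio was 3.12 (1.52 to 6.80, 12 and 26 UMIs) in cluster 0 and 2.55 (0.959 to 7.19, 8 and 12 UMIs) in cluster 1. These clusters are another division of the same glia and share some cells with the satellite sub-cluster. Over all glia Ntrk3 was at 9.10 and 11.98 CPM, with a ratio of 1.32 (0.844 to 2.05). Ngfr in the satellite or non-myelinating sub-cluster was at 36.2 and 38.7 CPM from 9 and 4 UMIs, against 6.44 and 7.79 CPM over all glia.

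**Figure D4:**
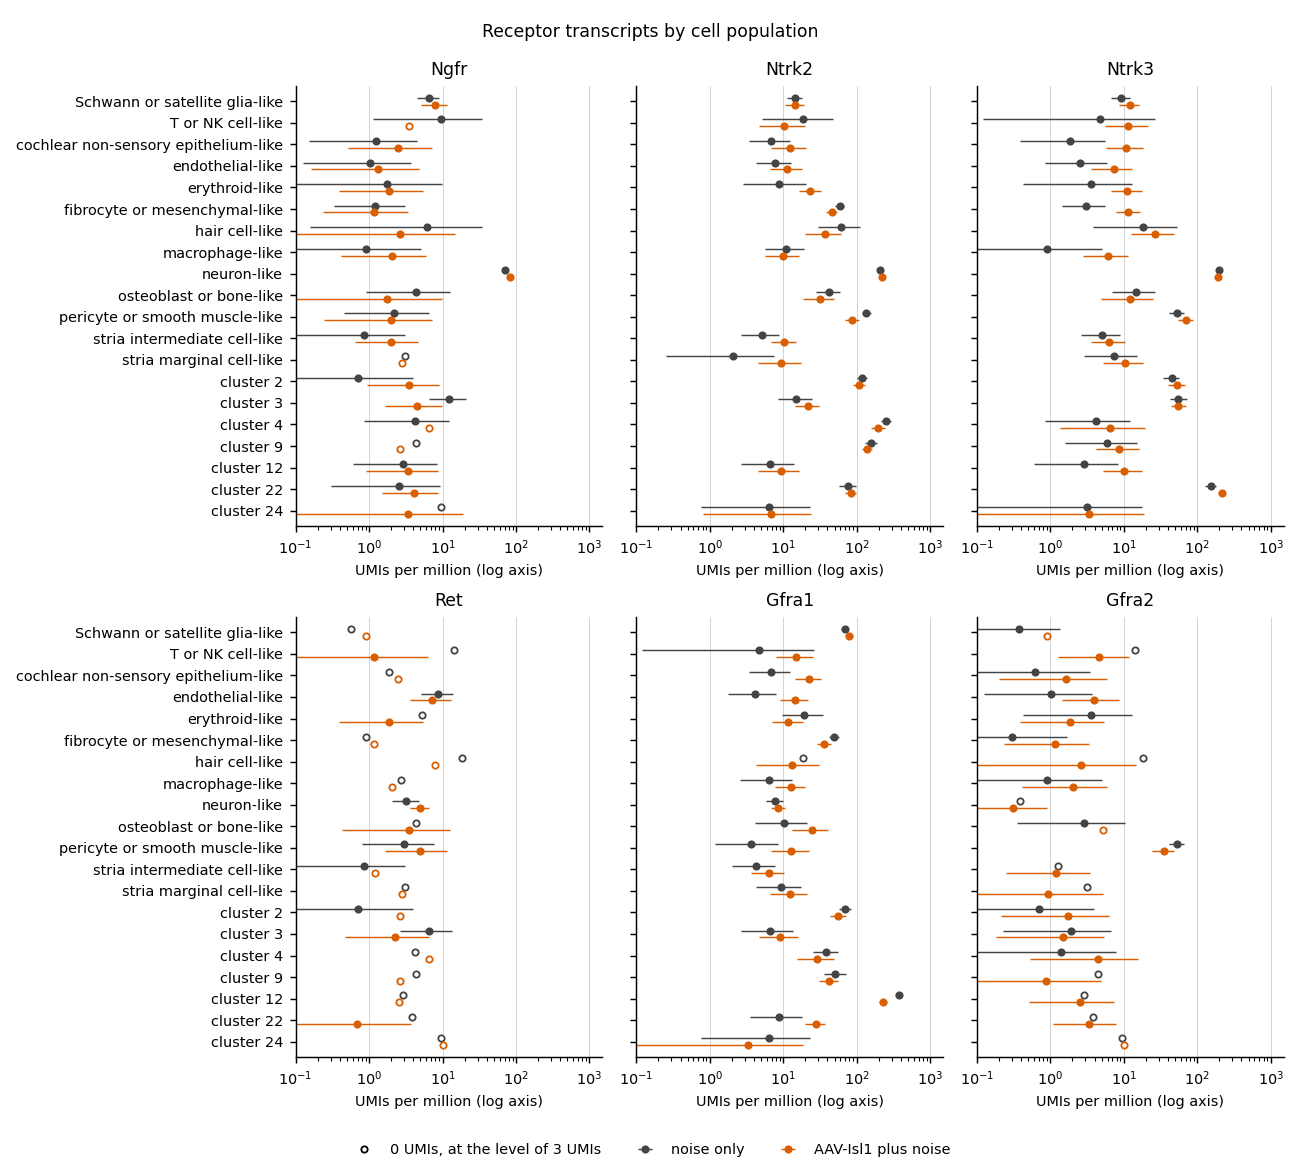
Level of the 6 receptor genes in each of the 20 populations (rows), as CPM on a log axis, for the noise-only (grey) and AAV-Isl1 plus noise (orange) libraries; lines are exact 95% Poisson intervals and open circles mark 0 UMIs, drawn at the level that 3 UMIs would give. Ngfr has 1 high population (neuron-like cells, 70.5 and 81.7), Ntrk2 and Ntrk3 have several, Gfra1 is highest in cluster 12 (373 and 228), and Ret has none above 8.72.

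Gfra1, the GDNF co-receptor, was above background in 5 of the 20 populations. Neuron-like cells as a class were not among them, although their small sub-cluster 7 had 410 and 193 CPM. Among the 20 populations the highest Gfra1 level was in cluster 12, at 373 CPM (337 to 412, 389 UMIs) in the noise-only library and 228 CPM (202 to 257, 272 UMIs) in the AAV-Isl1 plus noise library. The ratio was 0.611 (0.521 to 0.715), past 1.5-fold lower, where 20.6% of all genes measured in cluster 12 were called. Beside it, marker sums of other classes in cluster 12 were higher in the AAV-Isl1 plus noise library, at 104 (2 of 15 at 0) and 386 CPM (0 at 0) for neurons, 3218 and 4678 CPM for the 17 glial markers and 921 and 1452 CPM for the 15 of cochlear epithelium. Their part in the ratio was not tested. Thinned cells of cluster 12 held Gfra1 in 98 of 370 (26.5%, 22.1 to 31.3) and in 90 of 463 (19.4%, 15.9 to 23.3), against 2.49% and 1.19% of erythroid-like cells. At a lower clustering resolution cluster 12 merged with cochlear non-sensory epithelium, and the noise-only level was then 152 CPM. Schwann or satellite glia-like cells had 68.4 CPM (61.5 to 75.9, 361 UMIs) and 78.2 CPM (69.0 to 88.3, 261 UMIs), and the ratio of 1.14 (0.971 to 1.34) did not differ from 1 beyond counting error. In the glia of at least 1000 UMIs, thinned to that depth, the share of cells with Gfra1 was 71 of 1139 (6.23%, 4.90 to 7.80) and 68 of 639 (10.6%, 8.36 to 13.3), and the ratio was 1.69 (1.21 to 2.36). Thinning left out 5452 and 3793 shallower glia and down-sampled the rest, and which of these moved the ratio was not tested. None of the 4 genes with a ratio in glia was past 1.5-fold, where 10.9% of all genes were called. Cluster 2 (70.0 and 55.6 CPM), cluster 9 (51.4 and 41.9 CPM) and fibrocyte or mesenchymal-like cells (48.7 and 36.1 CPM) made up the rest. In the fibrocyte class the Gfra1 ratio was 0.740, and the shift between its 3 clusters alone gave 0.770.

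Ret, the kinase that GFRA1 and GFRA2 act through, was the least counted receptor, with 57 and 74 UMIs in all. Neuron-like cells held 25 and 48 of these (3.2 and 4.92 CPM, ratio 1.54, 0.929 to 2.60) and endothelial-like cells 17 and 11 (8.72 and 7.27 CPM, ratio 0.834). Of the 2 clusters that make up the neurons, cluster 10 held 21 and 32 Ret UMIs (ratio 1.15, 0.645 to 2.11) and cluster 11 held 4 and 16 (3.6, 1.16 to 14.8). Neither neuron-like nor endothelial-like cells passed the background rule for Ret. Erythroid-like cells held 0 Ret UMIs among 564357 UMIs in the noise-only library and 3 among 1616857 in the other. At that depth the rule could not tell Ret levels this low from free RNA. Ret was at 0 in both libraries in 10 of the 20 populations. These included cluster 12 and glia, the populations with the most Gfra1 UMIs. In 5276451 and 3338537 UMIs of glia there was no Ret UMI, which allows up to 0.569 and 0.899 CPM. In neuron-like cells, 44 and 80 held Gfra1 and 21 and 45 held Ret, and 3 and 1 cells held both. Ret was found in 6.82% of the neurons with a Gfra1 UMI and 2.37% of those without in the noise-only library, and in 1.25% and 3.12% in the other. With so few cells holding either transcript, no association is read from these shares.

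**Figure D5:**
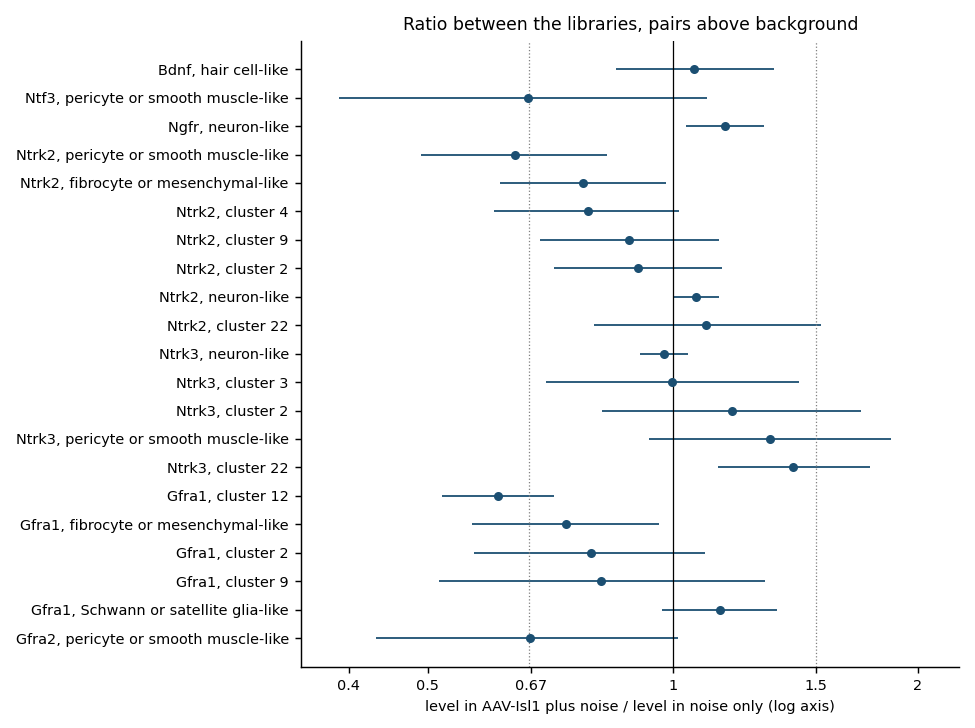
Ratio of the level in the AAV-Isl1 plus noise library to that in the noise-only library (log axis) for the 21 pairs of a gene and a population above background, with exact 95% intervals for counting error; the solid line marks 1 and the dotted lines 1.5-fold in either direction. Gfra1 in cluster 12 (0.611), Ntrk2 (0.640) and Ntf3 (0.663) in pericyte or smooth muscle-like cells lie past the lower dotted line, and no pair lies past the upper one. Only pairs above background in both libraries are drawn, which leaves out transcripts low in either library.

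For the other genes of these pathways, 73 genes in 7 lists were measured. Among other ligands and receptors, Nrtn (neurturin, the ligand of GFRA2) had 69.1 and 78.8 CPM in cluster 12 and 31.7 and 26.7 CPM in neuron-like cells. Gfra4, a further co-receptor of the family, had 33.3 and 39.1 CPM in neurons (ratio 1.18, 1.00 to 1.38). Cntf, a cytokine known from Schwann cells, had 138 and 149 CPM in glia (ratio 1.08, 0.965 to 1.22), and its receptor subunits Cntfr, Lifr and Il6st were counted in neurons with ratios of 0.984, 1.16 and 1.16. In neurons, where 8.29% of all genes were called, 0 of 2 other neurotrophin genes, 0 of 5 GDNF family genes and 0 of 5 genes of the CNTF family were past 1.5-fold. Of the other trophic ligands measured in neurons, 2 of 7 were past 1.5-fold higher and 0 lower, with a median of 0.37 on the log2 scale against 0.01 over all genes. These were Igf1 (18 and 92 UMIs, ratio 4.09, 2.45 to 7.21) and Fgf2 (11 and 33 UMIs, ratio 2.40, 1.18 to 5.27), named after their values were seen. Sub-cluster 3 of the neuron-like cells (17 and 47 cells) held 8 macrophage markers, and its part in the ratios in neurons was not tested. Of the genes for neurotrophin processing and p75 partners, 2 of 11 were higher and 0 lower, with a median of 0.01. They were the proprotein convertases Pcsk1 (12 and 47 UMIs, ratio 3.13, 1.64 to 6.49) and Pcsk6 (7 and 22 UMIs, ratio 2.52, 1.04 to 6.97), also named after their values were seen. In glia, where 10.9% of all genes were called, 2 of 5 GDNF family genes were past 1.5-fold higher, among them Gas1 (2.13, 1.46 to 3.11), with a list median of 0.51 on the log2 scale against 0.01 over all genes. Of the other trophic ligands in glia, 2 of 7 were past 1.5-fold higher, with Ptn (pleiotrophin) at 209 and 321 CPM (ratio 1.54, 1.41 to 1.67), and the list median was 0.35. Of the processing genes and p75 partners in glia, 1 of 8 was past 1.5-fold lower (Nradd, a relative of p75, 0.635, 0.489 to 0.819) and 0 higher, with a median of -0.08.

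The adaptors that couple Trk and RET kinases to their pathways had a median log2 ratio of 0.01 in neurons, the same as over all genes, and 1 of 14 was past 1.5-fold. Another list holds genes known to be induced by signalling of these kinases. In neuron-like cells 5 of its 12 measured genes were past 1.5-fold higher and 0 lower, with a median of 0.35, against 8.29% of all genes called in either direction. In glia 1 of 9 was higher and 0 lower, with a median of -0.30, against 10.9% of all genes. Fos was at 354 and 420 CPM in neurons (ratio 1.18, 1.13 to 1.24) and at 6925 and 5154 CPM in glia (0.744, 0.731 to 0.758). Egr1 showed the same order, with ratios of 1.14 (1.06 to 1.24) and 0.790 (0.764 to 0.817). A glial sub-cluster of 2941 and 2206 cells was led by Fos and Egr1 together with Irf1 and Klf2. Whether kinase signalling or something else set the levels of the listed genes was not tested. The 5 genes in neurons, named after their values were seen, were Vgf (2.29), Spry4 (3.1), Etv4 (9.40), Etv5 (1.65) and Spred2 (1.76). Of the Etv4 UMIs, 4 of 4 and 45 of 47 came from sub-cluster 5, where the level was 6.48 and 23.5 CPM (ratio 3.62, 1.32 to 13.9). Etv4 was also among the markers used to name type II spiral ganglion neurons. Within sub-cluster 5 the ratios were 2.15 (0.637 to 11.3) for Spry4, 1.81 (0.846 to 4.45) for Etv5, 1.19 (0.733 to 2.00) for Vgf and 0.939 (0.577 to 1.58) for Spred2. These intervals all included 1. Vgf had 22 of its 105 and 81 of its 301 UMIs in that sub-cluster. The shift of cells between sub-clusters alone gave 2.48 for Etv4, 1.53 for Spred2, 1.46 for Spry4, 1.33 for Etv5 and 1.29 for Vgf.

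Across the 20 populations of the noise-only library, the gene whose log2(CPM + 1) was most like that of Bdnf among 12747 genes was Xirp2, 1 of the hair cell markers (Pearson r = 0.97, and 0.94 in the other library). For Ngfr it was Pcbp3 (0.85 and 0.58), with Ptpn5 (0.83 and 0.70) and Scn1a (0.83 and 0.59), a sodium channel of neurons, next. Ntrk2 was most like Iglon5 (0.85 and 0.51) and Ntrk3 most like Ankrd55 (0.83 and 0.71). Gfra1 was most like Mme (0.87 and 0.89), which encodes the membrane peptidase neprilysin. These correlations describe 20 populations that share 1 library and its depth, and no p-value is given.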

How the data were processed

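Raw UMI counts were deposited by the authors for each gene and barcode, made per the submitters' processing notes with Cell Ranger and STAR on mm10 (GRCm38). The notes give Cell Ranger 5.0 and the matrix header 5.0.1. Seurat 3.2.2 is also listed, with no role stated. Barcodes arrived filtered (at least 500 UMIs).

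The cell filter was a minimum of 300 genes and a maximum of 20% mitochondrial UMIs. Scrublet's automatic thresholds called 0 doublets in both libraries, so the score exceeded by 6% of noise-only cells (0.195) was used, a choice made after seeing this. It removed 1196 (5.99%) and 936 (4.13%) cells. Clustering used scanpy 1.11.5 (3131 variable genes without the 9 described, 50 principal components, 15 neighbours, Leiden resolution 1.0). Populations were named from at least 3 markers 4-fold over other cells and in at least 10% of cells, with 1 of them among the 10 leading genes or at least 0.5 of the list found. This last rule and the minimum of 80 cells per library for named classes were set after clusters were seen. The T or NK cell-like population also led with immunoglobulin genes. Neuron-like, glial, epithelial and hair cell-like cells were clustered again at resolution 0.5. No deposited annotation was used, so names may differ from the study's.

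UMIs were summed per population and library. Poisson, conditional binomial (ratios) and Clopper-Pearson (shares) intervals are exact, at 95%, and a count of 0 allows 3 counts. The members and gene lists were chosen with earlier results of these data known. Named genes were all members, the 3 genes of each list with the most UMIs in neuron-like and in glia-like cells, and up to 3 genes most like each member with at least 100 UMIs per library. Not every gene that this rule names is reported here. Ratios were tested on simulated counts with known fold changes. Alternatives were another cell filter, doublets kept, thinning to 1000 UMIs, the 5 highest cells left out, median scaling, a minimum of 50 UMIs, shared barcodes left out, resolution 0.5, members not kept out of clustering, macrophage background and, added after seeing the data, mixed sub-clusters left out.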

Additional observations from a re-analysis of the deposited data

Results flagged for a closer look

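Several ratios of a gene differed between populations beyond counting error. The difference between the populations was not tested over replicates, since each group is 1 library. Ntrk2 stood at a ratio of 0.640 (0.490 to 0.831) in pericyte or smooth muscle-like cells, apart from its ratio over the other populations, and at 2.65 (1.04 to 8.64) in erythroid-like cells. The erythroid value came from 5 and 38 UMIs, and Gfra1 in the same cells had a ratio of 0.603 (0.273 to 1.40, 11 and 19 UMIs). The erythroid interval for Ntrk2 lay above that of pericyte or smooth muscle-like cells but included the Ntrk2 ratio over all kept cells, 1.06. Gfra1 stood at 0.611 in cluster 12 and at 3.11 in cluster 22 (7 and 41 UMIs), 3.24 in non-sensory epithelium (11 and 27 UMIs) and 3.54 in endothelial-like cells (8 and 22 UMIs). The last 3 populations did not hold Gfra1 above background.

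Clusters with under 80 cells in a library entered no comparison, and 2 of them held receptor transcripts above the erythroid level. Cluster 26, led by Fam92b, Ccdc153 and Stoml3 (50 and 31 cells), had Ntrk2 at 852 CPM (668 to 1072, 73 UMIs) and 784 CPM (525 to 1126, 29 UMIs), above the Ntrk2 level of any of the 20 populations. Cluster 28 held hemoglobin genes beside the neuronal genes Kcnc2 and Kcnb2 (8 and 54 cells). It had Ntrk2 at 221 and 182 CPM and Ntrk3 at 197 and 189 CPM in the noise-only and AAV-Isl1 plus noise libraries, and Ngfr at 72.9 CPM in the latter.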

How the results depend on the processing

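The 49 ratios gave 12 pairs past 1.5-fold higher and 5 lower. With doublets kept, 3 pairs were lower. Thinning to 1000 UMIs left 4 higher, and a minimum of 50 UMIs left 2 higher and 3 lower, both over fewer pairs (28 and 27). Thinning moved the ratio of Gfra1 in glia to 1.69 and of Ntrk2 in neurons to 0.996. The Gfra1 level of cluster 12 in the noise-only library was 152 CPM at resolution 0.5, and the Gfra2 level of pericyte or smooth muscle-like cells was 37.7 CPM under a stricter cell filter (500 genes, 10% mitochondrial UMIs). Unthinned shares of cells with a UMI in the noise-only library were 63.0% for Bdnf in hair cells, 46.9% for Gfra1 in cluster 12 and 5.89% for Gfra2 in pericyte or smooth muscle-like cells. In neurons the unthinned shares in the noise-only and AAV-Isl1 plus noise libraries were 42.8% and 35.3% for Ngfr, 76.5% and 65.6% for Ntrk2 and 76.1% and 62.9% for Ntrk3. In the AAV-Isl1 plus noise library they were 5.62% for Gfra1 in glia and 30.4% for Gfra1 in cluster 12. The cause of these shifts was not tested beyond what each setting changes. No ratio past 1.5-fold changed its direction under the settings run. Without the 5 highest cells, Gfra1 in cluster 22 had a ratio of 8.40. Few noise-only UMIs underlie that value, as all cells of the cluster held 7 and 41 Gfra1 UMIs. No paired analysis was possible because each group is 1 library of pooled ears, and no replicate could be left out. Depth limits the values of Ret, Gdnf and Ntf3 most.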
